A study of Caenorhabditis elegans with 3 samples.

Results

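The actin genes of Caenorhabditis elegans form a family of 5 members, act-1 to act-5, and they were read from the deposited table by their sequence names. These are T04C12.6 (act-1), T04C12.5 (act-2), T04C12.4 (act-3), M03F4.2 (act-4) and T25C8.2 (act-5), 5 of 20392 genes in the table. RNA was measured in whole worms of the wild-type strain N2 at mid-L4, the last larval stage, collected at 29 h after growth at 25 °C on the bacterial strain OP50, with no further treatment. There was 1 group of 3 libraries of total RNA depleted of ribosomal RNA. No genotype or condition was therefore compared, and the questions are how the family divides its RNA among its members and how evenly each member was measured. The values are TPM, the authors' estimates of transcript number, scaled to transcript length and to a library total of 1000000, so levels of different genes can be set side by side. Read counts cannot be recovered from TPM, so the depth is unknown. The submitters describe the replicates as independent. The labels do not say whether they came from separate cultures, so the SD over libraries may be in part technical.

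Actin is a globular protein that assembles into filaments. In striated muscle these are the thin filaments, along which myosin pulls. In other cells they form the cortex, the contractile ring of dividing cells and the core of microvilli. In C. elegans act-1, act-2 and act-3 lie together in a cluster and encode near-identical proteins. Together with act-4 they are known from muscle and from many non-muscle cells. act-5 is the most divergent member and is known as the actin of the microvilli of the intestine and the excretory canal.

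The positions below come from a match of the sequence names to the WBcel235 assembly, since the build behind the values is not given in the sources used here. act-1 lies on chromosome V from 11081052 to 11082415 on the plus strand. act-2 lies on V from 11076777 to 11078154 and act-3 on V from 11071690 to 11074498, both on the minus strand. The cluster spans 10726 nt, with 2278 nt between act-3 and act-2 and 2897 nt between act-2 and act-1. act-2 and act-1 are transcribed away from each other, and act-3 and act-2 in the same direction. act-4 lies on X from 4960621 to 4964413 on the plus strand, and act-5 on chromosome III from 13604412 to 13606066 on the minus strand.

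The annotated gene models of the 3 clustered genes share 1 coding layout. Their coding exons measure 190, 781 and 157 nt in act-1, in act-2 and in every transcript of act-3, for a protein of 376 residues. The longer transcript of act-4 codes for 376 residues too, but its coding exons measure 57, 735, 179 and 157 nt, and its first intron spans 2081 nt. A shorter transcript of act-4 codes for 332 residues. act-5 codes for 375 residues from coding exons of 501, 467 and 157 nt. The last coding exon was 157 nt in all 5 genes. The layouts differ upstream of it, with introns of 45 to 53 nt inside the coding region of the clustered genes and a first intron of 335 nt in act-5. Of the 3 act-3 transcripts, 2 add an untranslated first exon and an intron of 1150 or 1151 nt.

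**Figure D1:**
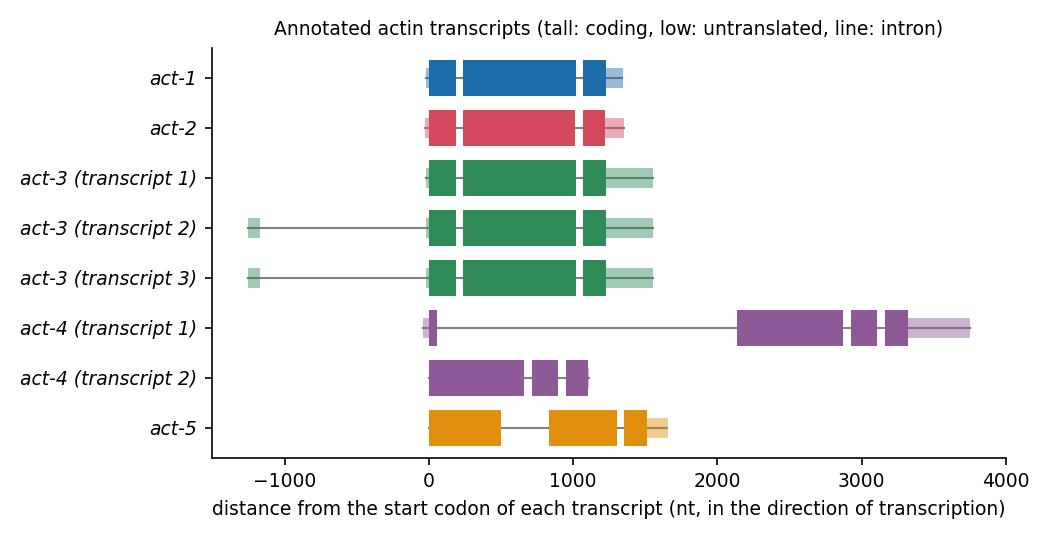
Annotated transcripts of the 5 actin genes, drawn to scale along the distance from each transcript's own start codon in nt, in the direction of transcription. Tall boxes are coding, low boxes untranslated, and lines introns. The clustered genes share coding exons of 190, 781 and 157 nt, and act-4 stands apart by its first intron of 2081 nt.

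Together the 5 genes held 2738, 2509 and 2399 TPM in replicates 1, 2 and 3, a mean of 2549 ± 173 TPM (SD, n = 3). This was 0.255% ± 0.0173 of all TPM. The family total was highest in replicate 1 and lowest in replicate 3. It depends less on how reads were shared out than the values of single members do. act-1, act-2 and act-3 together held 58.6% ± 1.28 of the summed actin TPM, or 1494 ± 135 TPM. Among single members, act-1 held 28.4% ± 1.80, act-5 26.5% ± 1.57, act-3 22.2% ± 1.68, act-4 14.96% ± 0.5003 and act-2 8.002% ± 1.20.

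act-1 was the most abundant actin gene by its mean. It stood at 833, 692 and 650 TPM in replicates 1, 2 and 3, with a mean of 725 ± 95.9 TPM (SD, n = 3). Its lead over the next gene rested on replicate 1, since it was above act-5 in 2 of 3 libraries and below it in replicate 3.

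act-5, the microvillar actin, stood at 682, 662 and 674 TPM, with a mean of 673 ± 10.04 TPM. Its libraries lay close together, and all of them lay inside the range of act-1. As whole worms were measured, the number of cells that express a gene and the RNA per cell cannot be told apart here or for any other gene below.

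act-3 stood at 557, 569 and 566 TPM, with a mean of 564 ± 6.33 TPM. Replicate 1 was its lowest library, unlike for the other 4 members, but by a margin of only a few TPM. act-3 was below act-5 and act-1 in every library and its range overlapped with neither.

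act-4, the X-linked member, stood at 413, 386 and 346 TPM, with a mean of 382 ± 33.7 TPM. Replicate 1 was highest and replicate 3 lowest. Among 1610 X-linked genes detected at 1 TPM or more in every library it ranked 29th by mean TPM.

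act-2 was the least abundant member, at 253, 200 and 164 TPM with a mean of 205 ± 44.8 TPM. Replicate 1 was again highest and replicate 3 lowest, and the range did not overlap with that of any other actin gene. Although it lies between act-3 and act-1 in the cluster, act-1 was 3.58 ± 0.350 times and act-3 2.84 ± 0.627 times as abundant per library. The act-3 to act-2 ratio was 2.20, 2.85 and 3.46 in replicates 1, 2 and 3.

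**Figure D2:**
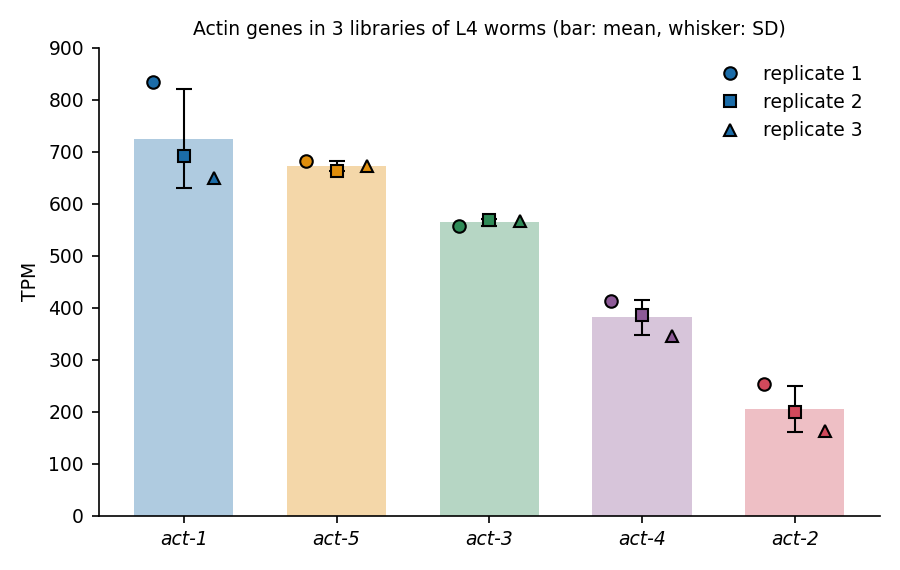
TPM of each actin gene (vertical axis, from 0) in each of 3 libraries, ordered by mean. Bars are means, whiskers SD over the libraries, and circles, squares and triangles are replicates 1, 2 and 3. act-1 and act-5 overlap, while act-3, act-4 and act-2 each sit apart from their neighbours in level.

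The order by mean was therefore act-1, act-5, act-3, act-4 and act-2. On the log2(TPM + 1) scale, act-1 exceeded act-5 by 0.10 ± 0.17 (SD of the per-library difference, n = 3), less than its own spread. These neighbours do not differ beyond their spread (exact two-sided sign-flip permutation test, p = 0.5, adjusted p = 0.5 over the 10 pairs of actin genes). act-5 exceeded act-3 by 0.25 ± 0.04, act-3 exceeded act-4 by 0.57 ± 0.14, and act-4 exceeded act-2 by 0.91 ± 0.19, each in 3 of 3 libraries. The remaining 6 pairs also kept their order in 3 of 3 libraries, with no overlap. For these 9 pairs the exact test gave p = 0.25 and an adjusted p of 0.278. With 3 libraries 0.25 is the smallest p this test allows, so no pair could pass the threshold of 0.05. The absence of overlap shows only that the order repeated over these 3 libraries. It does not show how reads were shared among the near-identical clustered genes, which was not tested.

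All 5 actin genes were detected, that is at 1 TPM or more in every library, as were 61.1% of all genes in the table. By mean TPM act-1 ranked 187th of 20392, act-5 202nd, act-3 223rd, act-4 297th and act-2 466th. The least abundant member was above 97.7% of all genes. No other gene carried the same values as an actin gene. The genes next to act-1 in level were fipr-6, named as related to fungus-induced proteins, at 728 ± 900 TPM and the aspartyl protease gene asp-3 at 723 ± 5.38 TPM. act-5 lay between Y82E9BR.22 (673.3 ± 107 TPM) and the cuticle collagen gene col-125 (673 ± 459 TPM). act-3 lay between F45H10.2 (570.3 ± 14.4 TPM) and the ATP synthase gene atp-3 (561 ± 11.4 TPM). act-4 lay between Y39B6A.5 (383 ± 34.4 TPM), which has an annotated transcript of 111 nt, and the saposin-like gene spp-3 (380.4 ± 37.5 TPM). act-2 lay between the cytochrome c1 gene cyc-1 (206 ± 5.66 TPM) and the histone gene ZK131.2 (205 ± 21.4 TPM). The name matched to ZK131.2 here, his-9, was also matched to ZK131.3 and ZK131.7, each at 428 TPM. Genes at the same mean differed widely in their spread, from an SD of 5.38 TPM for asp-3 to 900 TPM for fipr-6.

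The actin genes themselves differed in how steady they were. The coefficient of variation (CV, the SD as a percentage of the mean) was 1.12% for act-3 and 1.49% for act-5. It was 8.83% for act-4, 13.2% for act-1 and 21.8% for act-2. Each gene was set beside the detected genes whose mean lay within 2-fold of its own. Of 221 such genes for act-3, 6 had a lower CV, and of 196 for act-5, 9 did. For act-4 it was 148 of 321, for act-1 128 of 185 and for act-2 422 of 573. The median CV of these genes was 8.13% at the level of act-3 and 10.6% at that of act-2. act-3 and act-5 were among the steadiest genes of their level, act-4 was near the middle, and act-1 and act-2 varied more than most. With 3 libraries a CV is itself imprecise. Without replicate 1 it was 4.42% for act-1, 13.9% for act-2 and 0.338% for act-3, without replicate 3 it was 4.70% for act-4, and without replicate 2 0.927% for act-5.

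**Figure D3:**
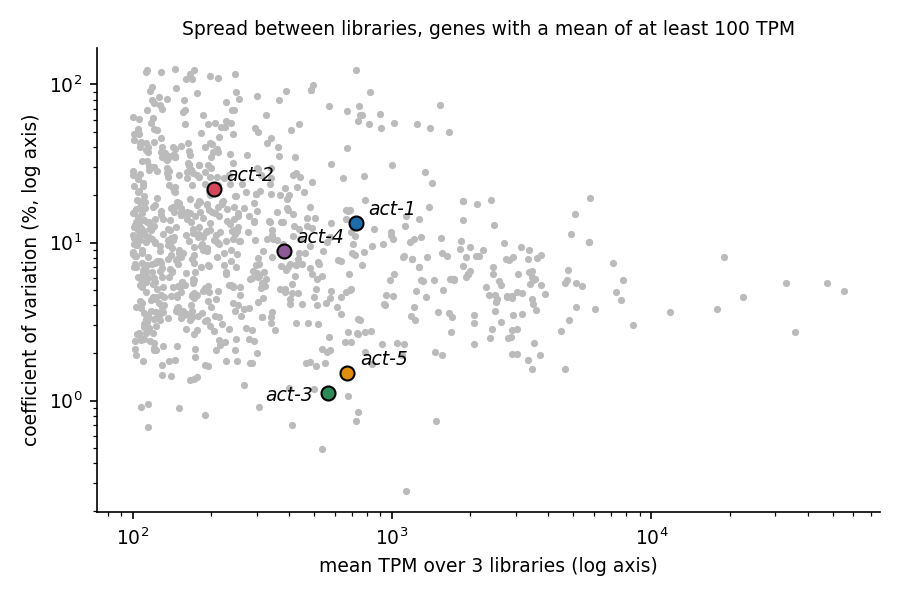
Coefficient of variation over 3 libraries in percent (vertical, log axis) against mean TPM (horizontal, log axis) for 877 detected genes averaging 100 TPM or more, in grey, with the actin genes in colour. act-3 (1.12%) and act-5 (1.49%) lie at the lower edge, and act-2 (21.8%) in the upper part.

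act-1, act-2 and act-4 shared a direction. They were highest in replicate 1 and lowest in replicate 3, a pattern of 3 of 5 actin genes and of 27.8% of the 12454 detected genes. Including act-5, 4 of 5 were highest in replicate 1, as were 39.8% of detected genes. Replicate 1 exceeded replicate 3 by 0.36 for act-1, 0.62 for act-2 and 0.25 for act-4 on the log2(TPM + 1) scale. The difference was 0.02 for act-5 and -0.02 for act-3, and its median over detected genes was -0.01. No actin gene differed 2-fold between its highest and lowest library, which 15.4% of detected genes did. Replicates of 1 group differ here by no label, so these differences have no test. The act-3 pattern therefore parted from that of its neighbours in the cluster, by a root mean square difference of 0.16 from act-1 and 0.27 from act-2 in log2(TPM + 1) centred on each gene's mean. It was closest to that of act-5, on another chromosome, at 0.03. Because the coding regions of the clustered genes are near-identical, how the authors' software shared reads among them bears on each single value, and this was not tested.

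Of the marker sums for cell types, the hypodermal one changed most across the same libraries, and several others were nearly level. The 5 hypodermal markers summed to 315, 161 and 62.9 TPM in replicates 1, 2 and 3. They were led by the cuticle collagen genes dpy-7 (84.2 ± 40.8 TPM), bli-1 (47.2 ± 54.6) and rol-6 (39.2 ± 34.8), each highest in replicate 1, and the other 2 were not. Of these, the GATA factor gene elt-3 stood at 8.98 ± 1.02 TPM. It rose over the libraries, at 8.04, 8.83 and 10.1 TPM in replicates 1, 2 and 3. The adult collagen gene col-19 was at 0.0255 ± 0.0241 TPM. The 5 pharyngeal muscle markers summed to 247, 307 and 326 TPM, and all 5 were highest in replicate 3, as were 40.2% of detected genes. The 7 body wall muscle markers summed to 2998, 3016 and 3103 TPM and the 6 intestinal markers to 4102, 4607 and 4378 TPM. The 6 neuronal markers summed to 101, 106 and 98.8 TPM and the 5 germ line markers to 111, 115.2 and 119.7 TPM. The body wall muscle sum was led by pat-10, at 1449, 1487 and 1557 TPM in replicates 1, 2 and 3. Of the 7 body wall markers, unc-54, unc-15 and myo-3 were highest in replicate 1 and lowest in replicate 3, the same order as act-1, act-2 and act-4. This was 3 of 7, against 27.8% of detected genes, and the other 4 were highest in replicate 3, against 40.2%. The log2 difference between replicates 1 and 3 was 0.03 for unc-54, 0.07 for unc-15 and 0.22 for myo-3. For act-4, act-1 and act-2 it was larger, at 0.25, 0.36 and 0.62. The median log2 difference between replicates 1 and 3 over the 7 markers was -0.02. The summed hypodermal level was highest in replicate 1 and lowest in replicate 3, as act-1, act-2 and act-4 were. That order came from the collagen genes dpy-7, bli-1 and rol-6, while elt-3 and col-19 were highest in replicate 3. The sum therefore does not stand for the hypodermis as a whole. What part any of these tissues had in the actin values was not tested.

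Among 6092 genes averaging 10 TPM or more, the library pattern closest to act-1 was that of the ubiquitin hydrolase gene ubh-1 and the dynein light chain gene dylt-1, at root mean square differences of 0.0070 and 0.0072 log2 units over 3 libraries. For act-2 it was the acyl-CoA synthetase gene acs-19 (0.0021) and the translocon-associated gene trap-4 (0.0053), which at 202 ± 43.6 TPM also matched its level. For act-3 it was tos-1 (0.0015) and T27F6.6 (0.0018), for act-4 the nucleoporin gene npp-9 (0.0020) and the cation ATPase gene catp-7 (0.0025), and for act-5 srgp-1 (0.0021) and the proton pump subunit gene vha-9 (0.0030). With 3 libraries many genes come close, most of all to the nearly level patterns of act-3 and act-5. The number of genes within 0.05 log2 units was 1052 (17.3%) for act-3 and 1058 (17.4%) for act-5. It was 495 (8.13%) for act-4, 230 (3.78%) for act-1 and 91 (1.49%) for act-2.

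**Figure D4:**
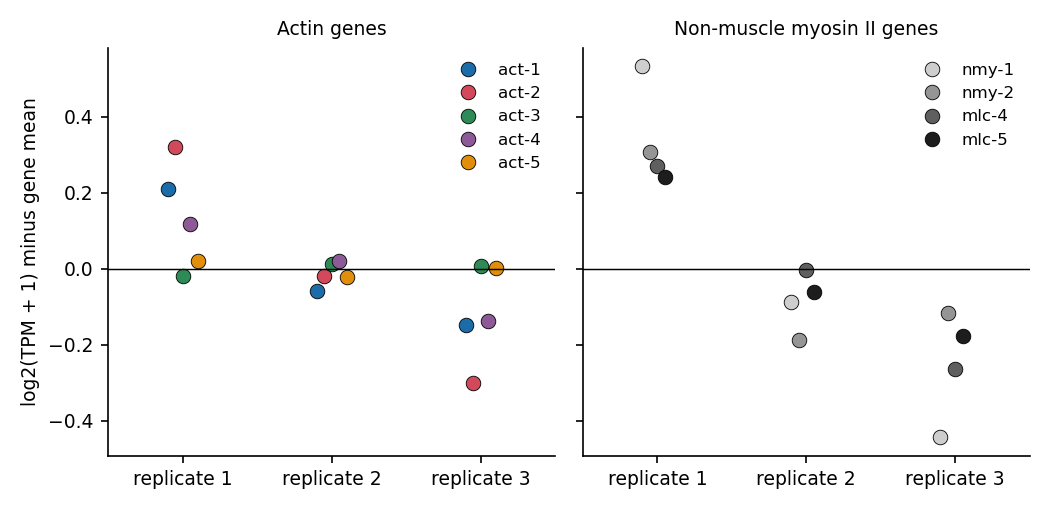
Deviation of log2(TPM + 1) from each gene's mean over 3 libraries (vertical) by replicate, for the 5 actin genes (left) and the 4 non-muscle myosin II genes (right). act-1, act-2, act-4 and all 4 myosin genes lie above 0 in replicate 1 and below 0 in replicate 3, and act-3 and act-5 stay near 0.

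The chromosomal neighbours of the actin genes, chosen by position after the values had been seen, were far less abundant outside the cluster. Y42A5A.1, 5532 nt from act-1, stood at 1.095 ± 0.0331 TPM, and T04C12.8, 2331 nt from act-3, at 28.7 ± 8.19 TPM. M03F4.4, 3202 nt from act-4, averaged 0.0606 TPM and was listed at 0 in replicate 2. On either side of act-5, T05D4.5 stood at 0.291 ± 0.0530 TPM across 20767 nt and shpk-1 at 0.828 ± 0.190 TPM across 1953 nt. Even the least abundant actin gene was above 97.7% of all genes, so almost any neighbour would be lower. No border of expression can be read from these values. M03F4.6, on the opposite strand, overlaps the end of act-4 by 1 nt and stood at 18.7 ± 4.26 TPM. Non-coding RNA genes are annotated on the opposite strand inside act-1 (T04C12.30, 150 nt) and act-3 (T04C12.17, 170 nt, and T04C12.26, 150 nt). The libraries were made with a stranded kit, but whether the counting used strand is not given, so reads of such partners may not be separated.

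The wider actin machinery was described with 12 lists holding 85 genes, all of which were detected, against 61.1% of all genes in the table. The median log2(TPM + 1) was 2.13 ± 0.05 over all genes in the table and 3.39 ± 0.02 over detected genes. Over all 20392 genes in the table, 465 had a mean above act-2, the lowest actin gene, and act-1, the highest, ranked 187th. Of the 85 listed genes, 11 had a mean above act-2 and 2 a mean above act-1. These 2 were pat-10, a troponin C gene of body wall muscle, at 1498 ± 54.4 TPM, and the muscle myosin light chain gene mlc-2 at 1234 ± 61.2 TPM.

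Muscle filament genes came closest to the actin genes. The 8 thick filament genes had a median log2(TPM + 1) of 8.56 ± 0.01, with mlc-2 followed by the major body wall myosin heavy chain gene unc-54 (678 ± 7.27 TPM) and the light chain genes mlc-3 (578 ± 12.1) and mlc-1 (518 ± 15.9). mlc-1 and mlc-2 encode near-identical proteins, so their split is uncertain. The pharyngeal heavy chain gene myo-2 was lowest, at 74.1 ± 11.6 TPM. The 13 thin filament genes had a median of 7.16 ± 0.15. After pat-10 came the troponin I gene unc-27 (403 ± 16.6 TPM), the calponin gene cpn-3 (304 ± 24.2) and the calponin-related gene unc-87 (268 ± 10.2), and the troponin T gene tnt-4 was lowest at 21.5 ± 5.86. Of these 13 genes, 10 were highest in replicate 3 and 3 in replicate 1, against 40.2% and 39.8% of detected genes. The summed actin TPM was 0.720 ± 0.0421 of that of the thick filament list and 0.778 ± 0.0811 of that of the thin filament list.

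The Arp2/3 complex, which nucleates branched actin networks, was even across its 7 subunits. Their median was 4.97 ± 0.05, from arx-4 (39.0 ± 1.67 TPM), arx-5 (34.8 ± 2.23), arx-3 (30.9 ± 1.19) and arx-2 (30.7 ± 1.16) down to arx-6 (20.5 ± 0.742). The summed actin TPM was 12.8 ± 0.803 times that of the complex. The other actin-related proteins, at a median of 4.40 ± 0.08, were arp-1 of dynactin (22.7 ± 1.26 TPM), arp-11 (20.2 ± 1.12) and arp-6 (10.3 ± 0.333).

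Formins and the regulators of the Arp2/3 complex had the lowest medians of the 12 lists. The 8 genes of the WASP and WAVE list, which switch on the Arp2/3 complex, had a median of 3.09 ± 0.08. They were led by abi-1 (14.9 ± 0.196 TPM), wve-1 (9.85 ± 0.189), gex-3 (9.11 ± 0.302) and toca-2 (7.76 ± 0.643), and wip-1 was lowest at 2.46 ± 0.329. The 7 genes of the formin list, a family known for building unbranched filaments, had a median of 2.54 ± 0.04, below that of detected genes. frl-1 (6.79 ± 0.885 TPM), fozi-1 (6.01 ± 1.34), cyk-1 of the contractile ring (4.77 ± 0.475) and inft-2 (4.75 ± 0.355) were highest and daam-1 lowest (1.45 ± 0.191). The summed actin TPM was 84.6 ± 10.2 times that of all 7 formins.

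Genes for proteins that bind monomers or take filaments apart had higher medians than the formin and the WASP and WAVE lists. The 6 monomer-binding genes had a median of 5.08 ± 0.17. The profilin genes pfn-3, pfn-1 and pfn-2 stood at 76.2 ± 5.61, 52.1 ± 2.20 and 42.1 ± 6.41 TPM, the thymosin gene tth-1 at 25.6 ± 2.89, and the cyclase-associated protein genes cas-1 and cas-2 at 24.4 ± 3.09 and 15.7 ± 0.373. The 4 genes of the cofilin list had a median of 4.97 ± 0.08. unc-60, the ADF/cofilin locus, whose products sever filaments, stood at 202, 180.2 and 161 TPM, with a mean of 181 ± 20.2 TPM. This was the highest value outside the muscle filament and intestinal lists, and like act-1, act-2 and act-4 it was highest in replicate 1 and lowest in replicate 3. The cofactor genes unc-78 (33.1 ± 2.63 TPM) and aipl-1 (22.5 ± 1.79) and the gelsolin-like gene gsnl-1 (28.0 ± 2.01) were lower. The 4 capping and tropomodulin genes had a median of 4.28 ± 0.03. Capping protein, which closes filament ends, had 33.7 ± 0.135 TPM for cap-1 and 45.1 ± 2.41 for cap-2. The tropomodulin genes tmd-2 and unc-94 had 9.04 ± 0.755 and 8.94 ± 1.92.

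Crosslinkers and membrane linkers had a median of 5.07 ± 0.13 over 15 genes, of which 11 were highest in replicate 1, against 39.8% of detected genes. Filamin fln-1 led at 97.6 ± 1.81 TPM, followed by alpha-actinin atn-1 (64.3 ± 2.55), the ezrin-radixin-moesin gene erm-1 (61.3 ± 2.82) and alpha-spectrin spc-1 (57.3 ± 3.18), and the anillin gene ani-3 was lowest at 4.96 ± 0.580. The partner motor of actin outside muscle, non-muscle myosin II, had a median of 5.58 ± 0.31. All 4 of its genes were highest in replicate 1, against 39.8% of detected genes. Of them, 3 were also lowest in replicate 3, a pattern of 27.8% of detected genes, while nmy-2 was lowest in replicate 2. The heavy chain gene nmy-1 stood at 47.1, 30.3 and 23.4 TPM in replicates 1, 2 and 3 and nmy-2 at 37.0, 25.9 and 27.3. The light chain genes mlc-4 and mlc-5 stood at 103 ± 19.3 and 64.9 ± 10.1 TPM. Replicate 1 exceeded replicate 3 by a median of 0.48 log2 units over these 4 genes, the largest such median of the 12 lists. This difference between replicates has no test.

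The genes listed as partners of act-5 in the intestinal brush border and terminal web were divided in their steadiness. The median of the 7 genes was 5.01 ± 0.02. The intermediate filament genes ifb-2 and ifc-2 stood at 164, 213 and 263 TPM and at 81.1, 95.9 and 126 TPM in replicates 1, 2 and 3, and ifd-2 was lowest at 7.09 ± 1.24. erm-1, which links actin to the apical membrane, had a CV of 4.61%, and eps-8 of 4.97%. The peptide transporter gene pept-1, at 31.2 ± 0.524 TPM, had 1.68%. The CV of act-5 was 1.49%, against 23.2% for ifb-2, 22.8% for ifc-2, 21.9% for ifo-1 and 17.5% for ifd-2. act-5 was 3.15 times as abundant as ifb-2 by their means and varied less over the same libraries.

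**Figure D5:**
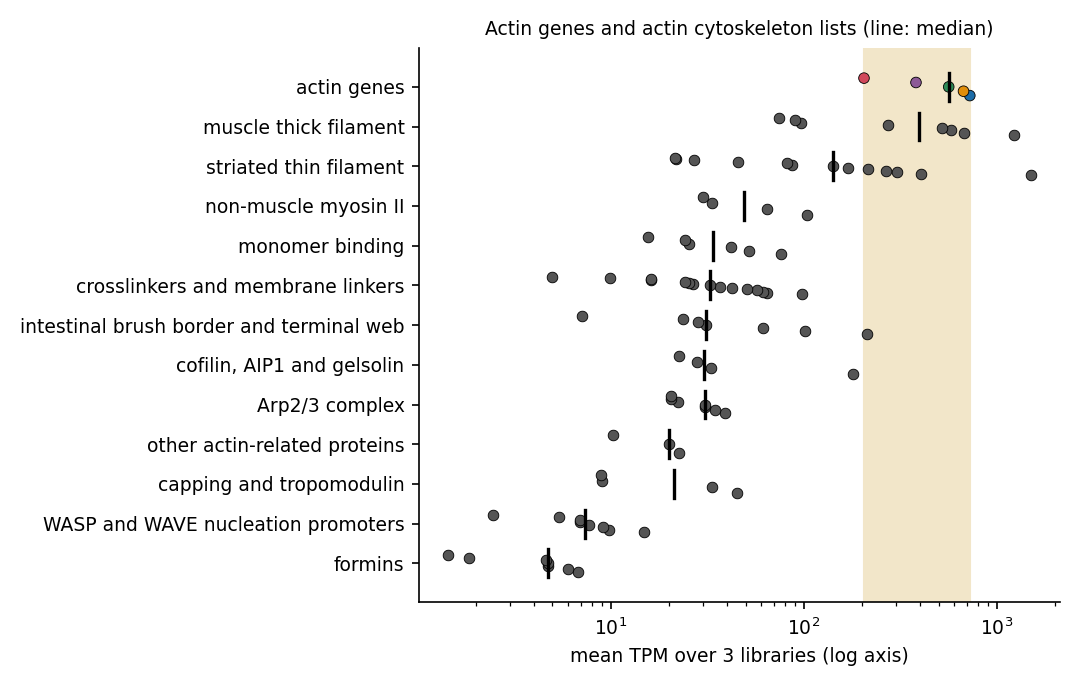
Mean TPM over 3 libraries (horizontal, log axis) of the actin genes (coloured, top row) and of 12 lists of actin cytoskeleton genes, 1 point a gene, spread vertically only for legibility, with a line at each median. The shaded band is the range of the actin genes, 205 to 725 TPM, which 11 of 85 list genes exceed at its lower edge and 2 at its upper edge. Of all 20392 genes in the table, 465 lie above the lower edge.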

How the data were processed

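RNA of whole L4 worms was measured in 3 libraries, depleted of ribosomal RNA and prepared with a stranded kit per the labels' protocols. The deposited values are TPM per gene, which the authors estimated with kallisto per the submitters' processing notes. Its version, index, annotation and summing to genes are not given in the sources used here, and neither are read depths. The authors' mean column equalled the mean of the 3 libraries to within 6.67e-06.

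Names were looked up in the WBcel235 annotation of Ensembl, release 115 (20135 of 20392, 98.7%). No sequence was used here, so none is printed, and the share of transcript sequence unique to each actin gene was not computed. Tools were pandas 2.3.3, numpy 2.4.6 and matplotlib 3.10.9 under Python 3.11.15. Pairs of actin genes were compared on log2(TPM + 1) with an exact sign-flip test paired by library and adjusted after Benjamini-Hochberg. The exact test, the scaling and the search for like patterns were tested on simulated data.

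The members, lists and rules were chosen with earlier results of these data known. Named were every actin gene, its neighbours in level and the 2 closest library patterns, and of each list the 4 highest genes and the lowest, or every gene of lists of up to 6. In the brush border list eps-8 and ifo-1 were named too. A further gene list is not reported here. Of the cell type lists only the summed levels and examples are given. Alternatives were other pseudocounts, detection limits, filters, scalings and totals, and leaving out each replicate.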

Additional observations from a re-analysis of the deposited data

How the results depend on the processing

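Of 234 alternative values, 199 stayed within the replicate spread or, for counts and CVs, within 1.5-fold, and 35 moved. None of the differences between neighbouring actin genes changed sign. That between act-1 and act-5 fell from 0.10 to 0.0063 log2 units without replicate 1. With totals lacking the 100 most abundant genes, the means were 1635 TPM for act-1, 1518 for act-5, 1273 for act-3, 861 for act-4 and 463 for act-2, in the same order. The family share was then 0.575%, and 0.387% without genes with a transcript under 300 nt. Summing act-1, act-2 and act-3 gave 58.6% in place of their single shares. As range over mean, the spread was 25.2% for act-1, 43.3% for act-2, 2.14% for act-3, 17.5% for act-4 and 2.98% for act-5, larger by construction. Leaving out 1 replicate, the CV ranged from 4.42% to 17.5% for act-1, 13.9% to 30.2% for act-2, 0.338% to 1.52% for act-3, 4.70% to 12.48% for act-4 and 0.927% to 2.11% for act-5. With a pseudocount of 5, list medians were 5.14 for Arp2/3, 4.65 for other actin-related proteins, 3.64 for WASP and WAVE, 3.30 for formins, 5.24 for monomer binding, 5.15 for cofilin, 4.58 for capping, 5.23 for crosslinkers, 8.58 for thick filaments and 5.18 for the brush border. With 0.1 they were 2.93 for WASP and WAVE, 2.30 for formins, 4.197 for capping and 4.97 for the brush border. No list gene averaged under 1 TPM, so the filter on low values changed nothing. At a detection limit of 5 TPM, 1 of 7 formins was detected. Groups could not be paired by replicate number because there is 1 group, while pairs of actin genes were compared within libraries. The planned share of unique transcript words was not run because no sequence was used here. Depth is unknown, so it sets no limit that can be stated.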
